A study of Sus scrofa with 12 samples.

Results

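The genes of creatine kinase and energy transfer serve the supply of high-energy phosphate from the mitochondria of the heart muscle cell to its contractile apparatus. Of 10 genes listed by their known roles, CKM, CKMT2, SLC6A8, SLC25A4, SLC25A5, SLC25A6, AK1 and VDAC1 had an identifier, so 8 of the 35682 genes in the count files were described. AK4, an adenylate kinase of the mitochondrial matrix, and MB, the oxygen store myoglobin, were paired with no identifier in the symbol table used and were not analysed here. All 8 passed the filter on low counts, as did 13844 genes in all.

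In working heart muscle, ATP made in the mitochondrial matrix leaves through the adenine nucleotide translocases of the inner membrane, and the sarcomeric mitochondrial creatine kinase passes its phosphate to creatine. Phosphocreatine moves through the outer membrane, where VDAC1 is the main pore, and the muscle creatine kinase beside the myofibrils and ion pumps turns it back into ATP. Cardiomyocytes do not make creatine and take it up through the transporter SLC6A8, and cytosolic adenylate kinase is a parallel route of phosphate transfer.

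The study placed vascular organoids, sheets of human endothelial progenitor and smooth muscle cells, on the infarcted heart of female Yorkshire pigs aged 10 to 12 weeks. In the pigs of both treatment groups the left anterior descending coronary artery was closed by a balloon for 60 min and reopened, and immunosuppression from day 9 was by tacrolimus at 0.75 mg/kg, prednisolone at 20 mg and mycophenolate at 500 mg a day. On day 14 a thoracotomy was made and either organoids with fibrin glue or fibrin glue alone were applied, and hearts were taken 28 days later. RNA was sequenced from 12 libraries, 1 of the border zone next to the infarct and 1 of the remote zone in the posterior wall of each of 6 animals, numbered 1022, 1322, 1323, 1623, 1922 and 3622. The treatment of each animal was not used here, so both zones hold the same animals and both treatments, and the comparison described is that of the 2 zones.

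Depth, as the total of counts, ran from 15130210 to 30526110 in the border zone and from 20091415 to 31618680 in the remote zone. Border zone library 3622 had the smallest total and 28024 genes with a count, against 16932 to 20148 in the other libraries, and border zone library 1022 stood apart in most of the genes described here. All 11 tested genes of a list of 14 cardiomyocyte markers had counts in every library. The summed CPM of that list, the count scaled to the TMM-normalized library size, was 13099 to 69387 in the border zone, lowest in library 1022, and 58488 to 97893 in the remote zone. Its median log2 fold change was -0.51, and -0.28 without animal 1022 or with library totals, 5 of 6 animals had a lower mean log2 level in the border zone, and 0 of its genes passed the adjusted threshold by edgeR, against 1 by DESeq2. The fibroblast and matrix list, with 13 of 14 genes tested, had summed CPM between 4074 and 80479 in the border zone, highest in library 1022, against 1353 to 3365 in the remote zone, and 11 of its genes were called, all higher in the border zone. With the animal as a block 1 of them was called, with no filter on low counts 7, without animal 1022 10 were called, and without 1323, 1623, 1922 or 3622 in turn 0 were called, with medians of the 13 log2 fold changes between 1.77 (without 1022) and 3.15 (without 3622). The 9 macrophage genes all had a log2 fold change above 0 (median 1.63, and 0.65 without animal 1022), and 1 was called, against 0 with the block, 5 by DESeq2 and 8 with library totals. Mitochondrially encoded genes held 5.69% to 17.3% of border zone counts and 13.6% to 33.5% of remote zone counts, and with them left out 0 of the 8 genes described were called. In tissue, fewer cardiomyocytes and less RNA of a gene per cardiomyocyte cannot be told apart.

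The quasi-likelihood test of edgeR, with p-values adjusted over all 13844 genes after Benjamini and Hochberg and a threshold of 0.05, called 2.07% of genes between border and remote zone. Of the 8 energy transfer genes, 0 were called, and 0 were called by the Wald test of DESeq2, which called 2.09% of genes as lower and 8.57% as higher in the border zone. At an unadjusted p under 0.05, 2 of the 8, SLC25A4 and AK1, were lower in the border zone by edgeR, beside 7.78% of all genes. With the animal as a block there were 4 of 8 (CKM, SLC25A4, SLC25A6 and AK1), beside 12.4% of all genes. The log2 fold change was below 0 for 7 of 8, as for 46.7% of all genes, with a median of -0.60 against 0.04 over all genes tested. CKM, SLC25A4, SLC25A6 and AK1, 4 of 8, had their lower level in the border zone in 6 of 6 animals, as did 11.1% of all genes. Without animal 1022 the log2 fold change was below 0 for all 8, with a median of -0.47, and without animal 3622 the median was -0.56, the 8 values lay between -0.85 (SLC25A4) and 0.45 (SLC25A5), and 0 of 8 had an unadjusted p under 0.05, where 2.97% of all genes were lower at that p. Without animal 1322, 6 of 8 were lower at that p, beside 8.88% of all genes. With libraries scaled by their totals, 7 of 8 were below 0, from -0.66 (SLC25A4) to -0.06 (SLC6A8), and SLC25A5 was at 0.69, while the median of all genes moved to 0.32.

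**Figure D1:**
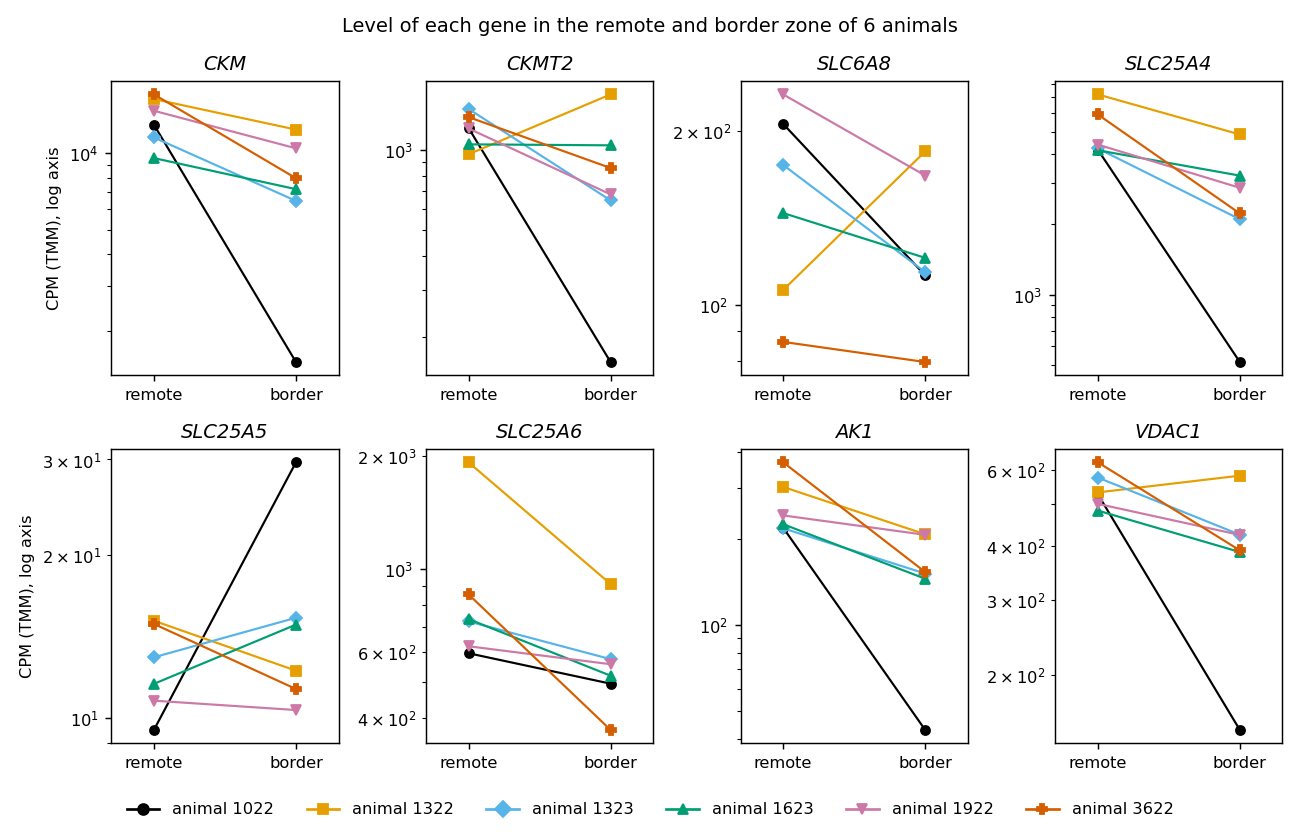
CPM (TMM scaled, log axis) of the 8 genes in the remote and border zone, with a line joining the 2 libraries of each of the 6 animals. The lines of CKM, SLC25A4, SLC25A6 and AK1 slope down in all 6 animals, animal 1022 has the steepest slope in 7 of the 8 panels, and its SLC25A5 line runs up from 9.50 to 29.6 CPM.

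The muscle creatine kinase gene CKM (ENSSSCG00000036132) lies on chromosome 6 from 51704021 to 51716935 of the Sscrofa11.1 build, with 9 separate exons over its RefSeq transcripts, the count of exons given for each gene here. Its CPM had a median of 7578 in the border zone, with a range from 1508 in animal 1022 to 12348 in animal 1322, and a median of 13772 in the remote zone, with a range from 9542 in animal 1623 to 16974 in animal 3622. The ranges overlapped, and the border zone was the lower zone in every animal. The log2 fold change was -0.83 (standard error 0.39, 95% interval -1.67 to 0.00, adjusted p = 0.202 by edgeR), a level 1.78-fold lower in the border zone that did not pass the test. Within animals the log2 difference was -3.10 in animal 1022 and lay between -1.09 and -0.40 in the other 5. Without animal 1022 the log2 fold change was -0.64, and over all alternatives the adjusted p by edgeR or DESeq2 was between 0.0961 and 0.375.

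The gene of the sarcomeric mitochondrial creatine kinase, CKMT2 (ENSSSCG00000014128, chromosome 2, 89796470 to 89830293, 10 exons), differed more from animal to animal. In the border zone its CPM was between 161 and 1606, with a median of 767, and in the remote zone between 960.3 and 1418, with a median of 1201. The border zone thus held both the lowest level, in animal 1022, and the highest, in animal 1322. The within-animal log2 difference was -2.90 in animal 1022 and 0.74 in animal 1322, was -0.01 in animal 1623, and lay between -1.13 and -0.63 in the other 3. Over all animals it differed by -0.52 on the log2 scale (standard error 0.38, adjusted p = 0.417 by edgeR), by -0.31 without animal 1022 and by -0.89 without animal 1322.

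SLC6A8 (ENSSSCG00000012771, chromosome X, 124435282 to 124452182, 14 exons) encodes the creatine transporter of the plasma membrane. Its CPM ranged from 79.5 to 184 in the border zone (median 117) and from 86.2 to 232 in the remote zone (median 159). The zones overlapped over most of their range, and both of the lowest values came from animal 3622. Between the zones it differed by -0.29 on the log2 scale (standard error 0.27, 95% interval -0.86 to 0.29, adjusted p = 0.532 by edgeR), by -0.16 without animal 1022 and by -0.50 without animal 1322. Animal 1322 was higher in the border zone by 0.80 on the log2 scale, and the other 5 animals had differences from -0.87 to -0.12.

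The adenine nucleotide translocases exchange ADP for ATP across the inner membrane, and 3 of their genes were measured. SLC25A4 encodes the form of heart and skeletal muscle, SLC25A5 a form found in dividing cells and SLC25A6 a form of broad distribution. The 3 are close copies in their coding sequence, and how reads that match more than 1 place were counted is not given in the sources used here, so a share of their reads may be assigned to the wrong copy.

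SLC25A4 (ENSSSCG00000015790, chromosome 15, 46193498 to 46197989, 4 exons) had the largest negative log2 fold change of the 8, -0.93 (standard error 0.40, 95% interval -1.78 to -0.07, adjusted p = 0.173 by edgeR). Its CPM was 515 to 4856 in the border zone (median 2548) and 4155 to 7209 in the remote zone (median 4313). Of the border zone libraries, that of animal 1322 alone lay within the remote range. The within-animal log2 difference was negative in 6 of 6 animals, -3.02 in animal 1022 and -0.36 to -1.41 in the others, and without animal 1022 the log2 fold change was -0.77. Over all alternatives its adjusted p was between 0.0754 and 0.354.

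SLC25A6 (ENSSSCG00000033673), on an unplaced scaffold of the build, had CPM 372 to 912 in the border zone (median 538) and 596 to 1926 in the remote zone (median 729.8). The highest remote value, in animal 1322, stood apart, as the next was 855. The log2 fold change was -0.67 (standard error 0.32, adjusted p = 0.205 by edgeR), with a negative difference in 6 of 6 animals, and was -0.74 without animal 1022. Unlike the genes above, its difference in animal 1022 was small, -0.27 on the log2 scale, while those of animals 1322 and 3622 were -1.08 and -1.20.

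SLC25A5 (ENSSSCG00000012623, chromosome X, 97919295 to 97922245, 4 exons) was the only one of the 8 with a log2 fold change above 0, 0.33 (standard error 0.25, 95% interval -0.20 to 0.86, adjusted p = 0.429 by edgeR). Its CPM was between 10.3 and 15.3 in 5 of the border zone libraries and 29.6 in that of animal 1022, from 185 to 897 counts, and between 9.50 and 15.1 in the remote zone. The border zone held its higher level in 3 animals and its lower level in 3. Without animal 1022 the log2 fold change was -0.03, so its direction rested on that animal.

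The cytosolic adenylate kinase gene AK1 (ENSSSCG00000005627, chromosome 1, 268355032 to 268365659, 8 exons) was the only one of the 8 whose zones did not overlap. All its border zone libraries lay below all its remote zone libraries, as for 0.701% of all genes tested. In the border zone its CPM was between 43.0 and 207 (median 152), and in the remote zone between 217 and 369 (median 233). The gap between the zones was narrow, and the border zone level was lower in every animal, with log2 differences from -2.34 in animal 1022 to -0.22 in animal 1922. The log2 fold change was -0.80 (standard error 0.31, 95% interval -1.45 to -0.14, adjusted p = 0.14 by edgeR), a level 1.74-fold lower, and -0.66 without animal 1022. Its adjusted p was between 0.0631 and 0.321 over all alternatives.

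VDAC1 (ENSSSCG00000014296, chromosome 2, 136302188 to 136334461, 9 exons), the pore of the outer mitochondrial membrane, had CPM 149 to 583 in the border zone (median 408) and 484 to 626 in the remote zone (median 530.5). The remote zone libraries were close to each other, and the spread in the border zone came mostly from animal 1022. Its log2 fold change was -0.46 (standard error 0.26, adjusted p = 0.275 by edgeR) and -0.30 without animal 1022, and animal 1322 was higher in the border zone by 0.13 on the log2 scale.

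**Figure D2:**
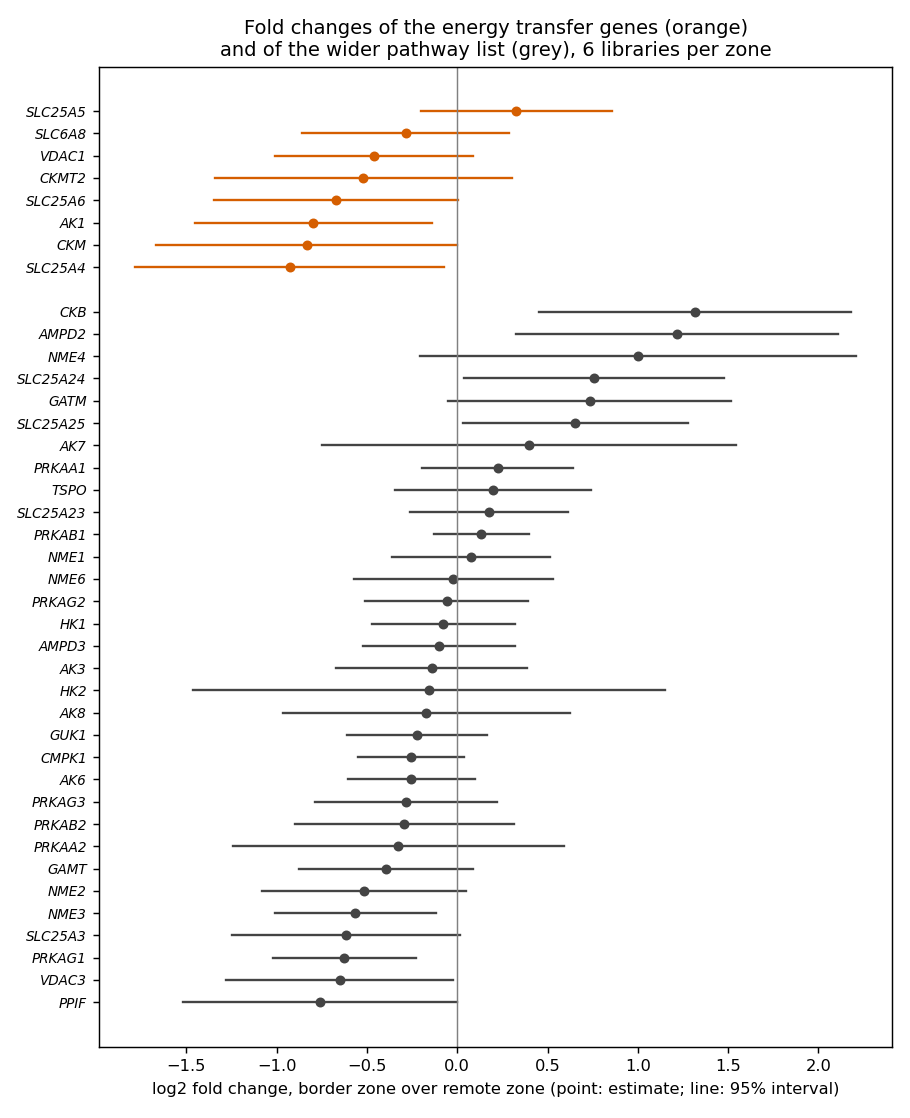
Log2 fold change of border over remote zone by edgeR, with 95% intervals, for the 8 energy transfer genes (orange) and the 32 tested genes of a wider pathway list (grey), from 6 libraries per zone. Of the orange intervals, those of SLC25A4 and AK1 lie below 0 and that of SLC25A5 is centred above 0 at 0.33.

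Divided by exon length in RefSeq, the remote zone levels followed an order that spanned CKM to SLC25A5. The median CPM per 1000 bases of exon in the remote zone was 6019 for CKM, 2692 for SLC25A4, 565 for CKMT2, 537 for SLC25A6, 278 for VDAC1, 118 for AK1, 74.3 for SLC6A8 and 9.40 for SLC25A5. On this scale the remote zone ranges of CKM (4170.2 to 7419) and SLC25A4 (2593 to 4500.0) overlapped, as did those of CKMT2 and SLC25A6, while each of the other neighbours in the order was separated. In the border zone the medians per 1000 bases were 3312 for CKM, 1591 for SLC25A4, 396 for SLC25A6, 361 for CKMT2, 214 for VDAC1, 77.2 for AK1, 54.6 for SLC6A8 and 10.4 for SLC25A5. CKMT2 and SLC25A6 stood in the other order here, within overlapping ranges.

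The 5 genes CKM, CKMT2, SLC25A4, AK1 and VDAC1 varied together over the libraries, with Pearson correlations of log2 CPM between 0.868 and 0.981 in their 10 pairs (12 libraries, which share zone, animal and scaling). These 5 were picked from the 8 by their correlations, and with them SLC6A8 had values between 0.160 and 0.314 and SLC25A6 between 0.348 and 0.636. Without border zone library 1022 the 10 correlations were between 0.438 and 0.924 over 11 libraries. The correlation of SLC25A5 with each of the 5 was between -0.769 and -0.667, and between -0.116 and 0.159 without that library. The genes most correlated with CKM, among all genes with a symbol, were SLC25A11 (r = 0.989), TUFM (0.988), UQCRC1 (0.988), SDHB (0.988) and CYC1 (0.987). For CKMT2 they were NDUFAF6 (0.988), MTRF1 (0.983), MRPL44 (0.977), METTL17 (0.976) and LPL (0.975). For SLC25A5 they were HLA-DRA (0.931), RAP1B (0.926), CD14 (0.925), CALHM5 (0.924) and SLA-DMB (0.923), each over the same 12 libraries, with border zone library 1022 as the far point.

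The start sites of SLC25A4, the translocase gene with the highest level per length, and of SLC25A5, the translocase gene with the lowest, are shown by the 250 bases before the RefSeq gene start in Sscrofa11.1, 5′ to 3′ on the strand of the gene. Capitals mark, on either strand, the nuclear receptor letters AAGGTCA, the MCAT letters of muscle promoters, CATTCC, the E-box letters CANNTG and the box of letters TATAAA that many core promoters hold. The windows are chr15:46193248-46193497 (plus strand) for SLC25A4 and chrX:97919045-97919294 (plus strand) for SLC25A5.
SLC25A4: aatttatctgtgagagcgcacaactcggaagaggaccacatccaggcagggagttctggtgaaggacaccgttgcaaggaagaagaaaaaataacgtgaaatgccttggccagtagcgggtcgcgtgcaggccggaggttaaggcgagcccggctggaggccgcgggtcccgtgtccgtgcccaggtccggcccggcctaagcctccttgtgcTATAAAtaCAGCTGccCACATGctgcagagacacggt
SLC25A5: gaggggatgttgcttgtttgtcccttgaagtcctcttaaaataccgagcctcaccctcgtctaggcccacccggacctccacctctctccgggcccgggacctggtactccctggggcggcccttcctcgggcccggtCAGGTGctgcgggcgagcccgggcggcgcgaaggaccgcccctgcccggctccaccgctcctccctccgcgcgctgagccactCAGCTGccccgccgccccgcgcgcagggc
Windows of 7 genes were searched. TATAAA was found before 1 of 7, SLC25A4, and before 10.4% of 20641 gene starts. The E-box letters CANNTG were found before 5 of 7 and before 62.3% of all, with 2 each in the windows of SLC25A4 and SLC25A5. CATTCC was found before 1 of 7, AK1, and before 10.4% of all. AAGGTCA was found before 0 of 7 and before 3.24% of all. ACGTG, which can overlap CANNTG and is not in capitals, was found before 3 of 7 (CKMT2, SLC25A4 and VDAC1) and before 18.2% of all. The share of G and C was 58.8% in the window of SLC25A4 and 72.4% in that of SLC25A5, against a median of 57.2% over all windows. These matches describe letters and not bound sites.

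Ratios of isoforms within a library hardly depend on its scaling, through the prior count alone. Between the zones of each animal 4 of them were compared by a two-sided exact permutation test of the 64 sign changes. The smallest p of this test with 6 animals is 0.031. CKB, the brain-type creatine kinase found at a low level in adult cardiomyocytes and in many other cells, was set against CKM. CKB had CPM 26.8 to 134 in the border zone (median 54.0) and 15.0 to 50.9 in the remote zone (median 18.2). Both of the highest values came from animal 1022. Its higher level was in the border zone in 6 of 6 animals, as for 11.7% of all genes, and its log2 fold change was 1.32 (standard error 0.40, adjusted p = 0.0863 by edgeR). It passed the threshold by DESeq2 (adjusted p = 0.021) and by edgeR with library totals (adjusted p = 0.0379), a setting that called 11.2% of genes as higher, and its adjusted p over all alternatives was between 0.021 and 0.212. Per 1000 bases of exon, CKB remained far below CKM, with medians of 33.3 against 3312 in the border zone and 11.3 against 6019 in the remote zone.

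The log2 ratio of CKB to CKM was higher in the border zone by 2.34 ± 1.24 (SD, n = 6 animals), in 6 of 6 animals, from 1.16 in animal 1323 to 4.49 in animal 1022 (exact permutation test, p = 0.031, and 0.0625 adjusted over the 4 ratios). The log2 ratio of SLC25A5 to SLC25A4 was higher by 1.41 ± 1.63 (SD, n = 6), in 6 of 6 animals, from 0.27 in animal 1322 to 4.65 in animal 1022, with the same exact p and adjusted p. Neither passed the threshold after adjustment, and neither could with only 2 of the 4 ratios at the smallest p of this test. When the libraries were permuted without regard to the animal, the exact permutation test gave both an adjusted p of 0.02165. Without animal 1022 the mean differences were 1.90 and 0.76, each higher in 5 of 5 animals, where the smallest possible exact p is 0.0625. Without animal 3622 they were 2.24 and 1.49. The ratio of CKMT2 to CKM differed by 0.26 ± 0.55 (SD, n = 6), with 4 animals higher and 2 lower (exact permutation test, adjusted p = 0.3125), and by 0.085 without animal 1322. That of SLC25A6 to SLC25A4 differed by 0.57 ± 1.15 (SD, n = 6), with 4 animals higher (exact permutation test, adjusted p = 0.3125), and by 0.14 without animal 1022.

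**Figure D3:**
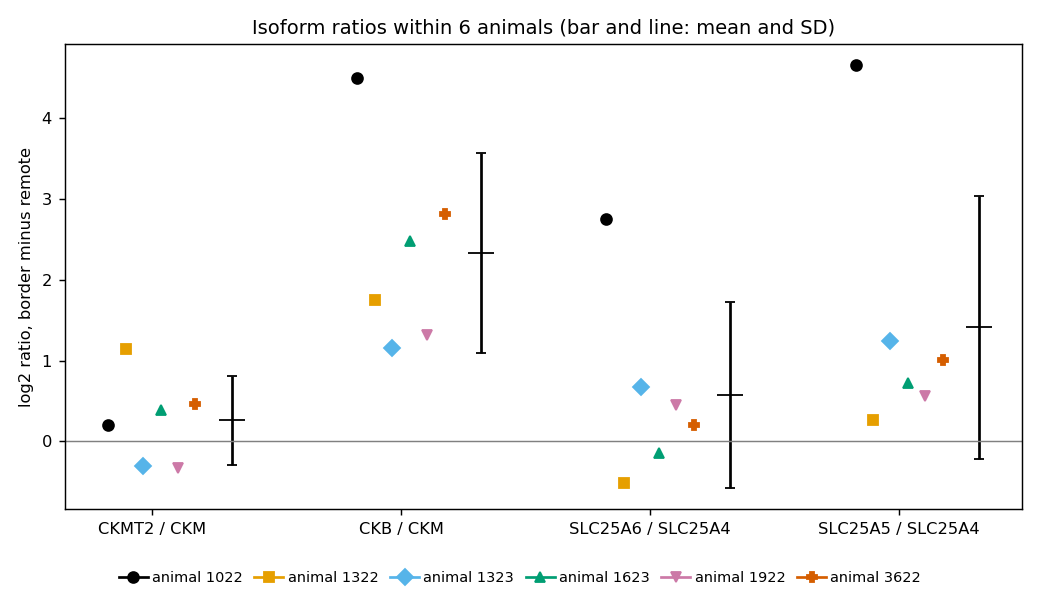
Difference of each isoform log2 ratio, border minus remote zone, in each of the 6 animals (points), with the mean (bar) and SD (line). All 6 points of CKB to CKM and of SLC25A5 to SLC25A4 lie above 0, and animal 1022 is the highest point in 3 of the 4 ratios.

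The 8 genes were then read beside the mean log2 CPM of the 11 cardiomyocyte markers in the same library. Relative to that list, the border zone level of CKM was the lower one in 6 of 6 animals, with a mean log2 difference of -0.41 ± 0.29 (SD, n = 6; exact permutation test, p = 0.031, and 0.125 adjusted over the 8 genes). SLC25A4 was lower in 6 of 6, with a mean of -0.52 ± 0.31 (SD, n = 6), with the same exact p and adjusted p. AK1 was lower in 5 of 6, with a mean of -0.28 ± 0.29 (SD, n = 6; exact permutation test, adjusted p = 0.1667). No gene passed the threshold after adjustment, and none could with only 2 of the 8 at the smallest p that the design allows. The share of all genes lower against the list in every animal was not computed. In animal 1623 the differences of CKM and SLC25A4 were close to 0, at -0.06 and -0.02. The means of CKM and SLC25A4 were -0.31 and -0.46 without animal 1022, and -0.39 and -0.46 without animal 3622.

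VDAC1 had the smallest spread about the list, with a difference of 0.08 ± 0.15 (SD, n = 6; exact permutation test, adjusted p = 0.3333) and values from -0.07 to 0.37 over the animals, and of 0.026 without animal 1022. CKMT2 differed by -0.15 ± 0.59 (SD, n = 6; exact permutation test, adjusted p = 0.6429) and SLC6A8 by 0.39 ± 0.59 (SD, n = 6; exact permutation test, adjusted p = 0.3333). Without animal 1022 these were -0.034 and 0.20, and CKMT2 was at -0.32 without animal 1322. SLC25A5 differed by 0.89 ± 1.48 (SD, n = 6; exact permutation test, adjusted p = 0.25), and by 0.31 without animal 1022. SLC25A6 had 3 animals on each side of 0, with a mean of 0.05 ± 1.03 (SD, n = 6; exact permutation test, adjusted p = 0.875) that became -0.32 without animal 1022. The part of the fibroblast, matrix and macrophage markers in these differences was not tested.

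**Figure D4:**
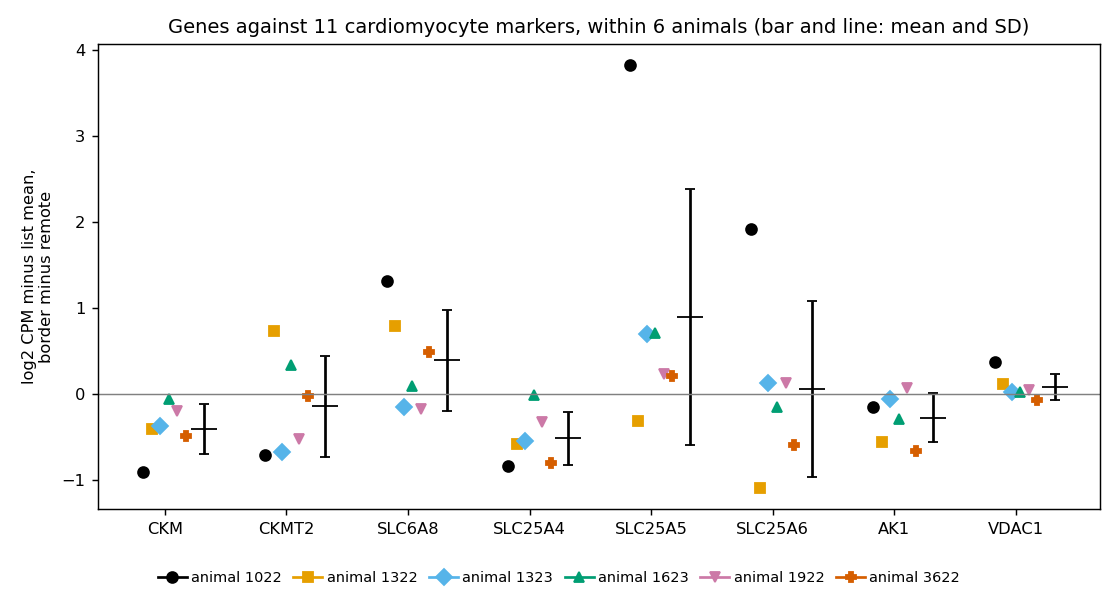
Difference between border and remote zone of log2 CPM minus the mean of 11 cardiomyocyte markers, for each of the 8 genes in each of the 6 animals (points), with the mean (bar) and SD (line). All 6 points of CKM and of SLC25A4 lie below 0, the points of VDAC1 lie between -0.07 and 0.37, and SLC25A5 in animal 1022 lies at 3.82.

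A wider list of 42 genes covered creatine synthesis, other creatine, adenylate and nucleotide kinases, phosphate and nucleotide carriers, partners of the pores and the AMP-activated kinase. Of these, 35 had an identifier and 32 passed the filter. By edgeR 0 of the 32 passed the adjusted threshold, with 3 lower (VDAC3, NME3 and PRKAG1, beside 7.78% of all genes) and 4 higher (CKB, SLC25A24, SLC25A25 and AMPD2, beside 17% of all genes) at an unadjusted p under 0.05. There were 20 with a log2 fold change below 0 and 12 above 0, with a median of -0.12 that was -0.026 without animal 1022, -0.20 without animal 1322 and 0.13 when libraries were scaled by their totals, a scaling that moved the median of all genes from 0.04 to 0.32. Lower in 6 of 6 animals were 5 of the 32, beside 11.1% of all genes, and higher in 6 of 6 was 1, CKB, beside 11.7%. DESeq2 called 2 of the 32, CKB as higher and PRKAG1 as lower, beside 8.57% and 2.09% of all genes, and edgeR with library totals called CKB and AMPD2 as higher, beside 11.2% of all genes.

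PRKAG1, a regulatory subunit of the AMP-activated kinase that senses AMP, had CPM 22.2 to 49.0 in the border and 47.0 to 71.6 in the remote zone, lower in 6 of 6 animals, and its log2 fold change was -0.63 (standard error 0.18, adjusted p = 0.081 by edgeR). Its adjusted p by DESeq2 was 0.0181, and over all alternatives it was between 0.0181 and 0.197. AMPD2, an AMP deaminase of tissues other than adult muscle, differed by 1.22 on the log2 scale (standard error 0.42, adjusted p = 0.11 by edgeR), with CPM of 31.1 in border zone library 1022 and 3.75 to 14.9 in the other border zone libraries, against 3.01 to 7.07 in the remote zone. Without animal 1022 it was 0.60. NME4, a nucleoside diphosphate kinase of mitochondria, differed by 1.0 on the log2 scale (adjusted p = 0.283 by edgeR) at no more than 43 counts in any library, and by 0.66 without animal 1022. PPIF, which encodes the cyclophilin of the permeability transition pore, had -0.76 (adjusted p = 0.202 by edgeR). Its within-animal log2 difference was -3.31 in animal 1022 and between -1.09 and 0.02 in the others. SLC25A24, a carrier of ATP-magnesium and phosphate, had a log2 fold change of 0.76 (adjusted p = 0.185 by edgeR), and of 0.44 without animal 1022.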

How the data were processed

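Total RNA of 12 border and remote zone samples was made into poly(A), nondirectional libraries and sequenced as paired ends of 150 bp. The authors checked reads with FastQC 0.12.1 and MultiQC 1.17, aligned them to Sscrofa11.1 (Ensembl release 113) with STAR 2.7.10a and counted them with featureCounts 2.16.1. The deposited values are raw counts per gene, without normalization. Options for reads matching several places are not given in the sources used here.

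Tools for the counts were edgeR 4.0.16, DESeq2 1.42.0 and limma 3.58.1 under R 4.3.3, and Python 3.11.15 with NumPy 2.4.6, SciPy 1.17.1, pandas 2.3.3 and matplotlib 3.10.9 was used for the rest. Genes were kept by filterByExpr (13844 of 35682) and scaled by TMM, and the robust quasi-likelihood test of edgeR, with no term but the region, was adjusted over all genes after Benjamini and Hochberg. Standard errors were taken from log2 fold changes and the square root of F. Log2 CPM used a prior count of 2. Symbols came from a table that paired 15623 identifiers. Both libraries with a number come from 1 animal, which pairs them, and the correlation of their deviations from the zone means was 0.345 on average and over 0.1 in 4 of 6 pairs. Alternatives were the animal as a block, DESeq2, its size factors, library totals, other filters, no mitochondrial genes, a prior count of 0.5 and each animal left out. The fitting code was tested on simulated data. No 2 libraries of the same zone agreed within sampling noise (lowest chi-square 27.34 per gene), so none was taken as deposited more than once within a zone. Libraries of different zones were not compared in this way.

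The genes described, the pathway list and the marker lists were chosen with earlier results of these data known. Named beside the 8 genes are CKB as partner of a ratio, genes of the pathway list past the threshold or otherwise the 5 with the largest absolute log2 fold change, and the 5 genes most correlated with CKM, CKMT2 and SLC25A5. VDAC3, NME3, PRKAG1 and SLC25A25 were named after their values were seen. Of the lists not described with the genes, median log2 fold changes were 0.16 for endothelium (8 of 11 genes above 0), smooth muscle and pericyte 1.13 (7 of 9), adipocyte 2.06 (3 of 4, with 5 listed) and cell division 2.12 (2 of 2, with 6 listed). Summed CPM of the adipocyte genes was 33.8 to 74.4 in the border and 19.1 to 137 in the remote zone. That of the cell division genes was 1.46 to 17.5 and 0.62 to 3.39. With at least 10 counts in every library 1 gene of each was tested, at -0.43 for adipocyte and 2.10 for cell division. With 1 animal left out, endothelium ranged from -0.015 (without 1022) to 0.28 (without 1322), smooth muscle and pericyte was at 0.60 and cell division at 1.38 without 1022, and adipocyte was at 0.89 without 1323, where 3 of its genes were tested. Promoter letters came from the RefSeq annotation of Sscrofa11.1. The window of 1 gene is not reported here. Counts do not tell PCR copies from separate molecules.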

Additional observations from a re-analysis of the deposited data

Results flagged for a closer look

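For 30 groups of 6 libraries or 6 within-animal differences, the distance of the most extreme value from the next one was set against the spread from lowest to highest, and 9 groups had a value set apart. In unrelated groups chance sets apart about 1 in 20, but these groups share libraries and genes. Their number can therefore not be set against that rate.

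The border zone library of animal 1022 was the one set apart in 5 of these, on the log2 CPM scale. In it CKM was at 10.558, where the nearest border zone library was at 12.661. SLC25A4 was at 9.0074 with the nearest at 11.039, AK1 at 5.4298 with the nearest at 7.18, and VDAC1 at 7.2228 with the nearest at 8.5974. SLC25A5 was set apart upward, at 4.8935 with the nearest at 3.9439. The same library held the lowest summed level of the cardiomyocyte markers (13099 CPM) and the highest of the fibroblast and matrix markers (80479 CPM), whose part in these values was not tested. In the remote zone SLC25A6 was at 10.911 in animal 1322, with the nearest at 9.7407.

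Of the differences between border and remote zone within an animal, animal 1022 was set apart for the log2 ratio of SLC25A5 to SLC25A4, at 4.6545 with the nearest at 1.2484, for that of SLC25A6 to SLC25A4, at 2.7521 with the nearest at 0.67315, and for SLC25A5 minus the cardiomyocyte list, at 3.8204 with the nearest at 0.70407.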

How the results depend on the processing

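The number of the 8 genes called was 0 in each alternative, including the fit with the animal as a replicate block, where their median log2 fold change was -0.68, and their median was between -0.76 and -0.32 over all alternatives. With 1 animal left out, 0 (without 3622, beside 2.97% of all genes) to 6 (without 1322, beside 8.88%) of the 8 were lower at an unadjusted p under 0.05. The pathway list had 2 genes called by the DESeq2 Wald test (beside 8.57% of all genes as higher and 2.09% as lower) and 2 with library totals (beside 11.2% as higher), against 0 otherwise. The log2 ratios of CKB to CKM (2.34) and of SLC25A5 to SLC25A4 (1.41) passed the threshold with no replicate block (exact permutation test, adjusted p = 0.02165) and not with it. With the block both were at the smallest p of the exact permutation test. As only 2 of the 4 ratios were there, no lower adjusted p was possible, so this contrast does not measure the effect of the block. The block changed no call among the 8 genes, CKB and their values relative to the cardiomyocyte list, while the fibroblast and matrix calls went from 11 to 1 and the macrophage calls from 1 to 0. Of 117 gene values under alternatives, 114 had the same direction and call, 2 (CKB by DESeq2, 1.29, and with library totals, 1.64) passed the threshold, and SLC25A5 reversed to -0.032 without animal 1022, its range with 1 animal left out being -0.032 to 0.45. Of 72 values relative to the cardiomyocyte list, those with 1 animal left out could not change their call, as the smallest exact p is then 0.0625. The prior count and the size factors hardly moved the values. In direction 71 of the 72 were the same, and SLC25A6 reversed to -0.32 without animal 1022 (-0.32 to 0.28 with 1 animal left out). The cause was not tested.

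Over all genes, 287 were called, against 41 with the block, 1476 by DESeq2, 1551 with library totals, 139 with no filter, 149 with at least 10 counts in every library, and 0 (without 1623 or 3622) to 519 (without 1322) with 1 animal left out. Ratios of AK4 to AK1 were not run, since AK4 had no identifier. With 5 animals the exact test cannot go below 0.0625. SLC25A5, at 185 to 897 counts per library, and NME4, at no more than 43, had fewer counts than CKM and SLC25A4. The standard error of SLC25A5 (0.25) was still below those of CKM (0.39) and SLC25A4 (0.40).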
